A study of Rattus norvegicus with 12 samples.

Results

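The genes described here are 39 rat genes of the NRF2, thioredoxin and glutathione redox systems, picked by symbol from a list of known members and found on the array by their current or an older symbol. They were represented by 48 of the 45598 probes and by 39 of the 36181 gene names on the array, and 33 of them were among the 13542 genes that were bright enough to be tested. The study exposed N27 cells, a rat midbrain line immortalised with a viral large T antigen and labelled by its submitters as dopaminergic, to fipronil, a phenylpyrazole insecticide that blocks the GABA-gated chloride channel of insects. The fipronil group held 6 samples, numbered 1, 2, 3, 4, 7 and 8 in the labels, from cells given 25 µM fipronil for 24 h. The control group held 6 samples, numbered 2, 3, 5, 6, 7 and 8, from cells that were not treated. All samples came from the same line, and the labels name no vehicle for either group. Total RNA was labelled with Cy3 and each sample was hybridised to 1 Agilent array of 60-base probes. The labels do not say whether samples were separate cultures, and the p-values below therefore cover only the array-to-array spread within each group, part or all of which may be technical.

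NRF2, encoded by Nfe2l2, is a transcription factor that KEAP1 marks for degradation until reactive electrophiles or oxidants modify KEAP1. Freed NRF2 pairs with small MAF proteins at antioxidant response elements and raises genes for glutathione synthesis, thioredoxin reduction, NADPH supply and quinone detoxification, while BACH1 competes for the same elements. Thioredoxin and glutathione carry the electrons of NADPH to peroxiredoxins and glutathione peroxidases, which remove peroxides, and TXNIP binds reduced thioredoxin and lowers glucose uptake. Midbrain dopamine neurons are known for a high oxidant load, since dopamine breakdown itself yields peroxide.

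The sequences that carry the comparisons are the oligonucleotides that measured Txnip, the member that passed the test, and the probe pair of Akr1b8, whose probes gave unlike results. The first 30 of the 60 bases of each probe are shown 5′ to 3′ in lower case. The Txnip probe lies on chr2:191360631-191360690 (rn4, plus strand) and holds 11 G or C bases among its 60. The brighter Akr1b8 probe lies on chr4:61727072-61727131 and the dimmer one spans chr4:61724364-61725032 (rn4, plus strand), a stretch longer than the probe. These coordinates are those printed in the deposited files.
Txnip, A_44_P237621: tttgtgtatctttttgtatgattaaaaact
Akr1b8 brighter, A_44_P1163961: cggagctctggtaacatttgagggtatgca
Akr1b8 dimmer, A_44_P426107: acgccagcacgtatacaggagaacattcag

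RefSeq promoter windows (GRCr8, 250 bases before to 50 bases after the annotated start) were matched for 34 of the 39 genes, as 37 windows, with 2 each for Gpx4 and Txnrd1. No window was matched for Gsr, Txnip, Msra, Prdx6 and Hmox1. The core letters of the antioxidant response element, TGACNNNGC on either strand, stood in the windows of 9 members, and in 4038 of 33469 rat windows (12.1%). The 9 members were Nfe2l2, Gclm, Txnrd1, Prdx1, Prdx4, Prdx5, Sod2, Me1 and Blvra. The window letters of 3 members whose fipronil and control values are given array by array below are printed with the match in capitals. These are Nfe2l2 at chr3:81028950-81029249 on the minus strand, Prdx1 at chr5:135383656-135383955 on the plus strand, and the Txnrd1 window with a match at chr7:22755855-22756154 on the minus strand.
Nfe2l2: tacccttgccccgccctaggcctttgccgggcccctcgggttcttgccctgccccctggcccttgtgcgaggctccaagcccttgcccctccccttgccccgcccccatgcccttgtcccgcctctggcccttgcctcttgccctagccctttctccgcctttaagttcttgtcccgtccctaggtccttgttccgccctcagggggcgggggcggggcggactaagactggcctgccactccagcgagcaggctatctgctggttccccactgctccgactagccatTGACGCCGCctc
Prdx1: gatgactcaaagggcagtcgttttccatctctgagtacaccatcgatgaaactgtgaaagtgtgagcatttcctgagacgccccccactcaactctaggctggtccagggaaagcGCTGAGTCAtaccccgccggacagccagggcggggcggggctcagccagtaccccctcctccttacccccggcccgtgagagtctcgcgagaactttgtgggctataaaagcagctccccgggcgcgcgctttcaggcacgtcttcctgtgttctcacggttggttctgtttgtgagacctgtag
Txnrd1: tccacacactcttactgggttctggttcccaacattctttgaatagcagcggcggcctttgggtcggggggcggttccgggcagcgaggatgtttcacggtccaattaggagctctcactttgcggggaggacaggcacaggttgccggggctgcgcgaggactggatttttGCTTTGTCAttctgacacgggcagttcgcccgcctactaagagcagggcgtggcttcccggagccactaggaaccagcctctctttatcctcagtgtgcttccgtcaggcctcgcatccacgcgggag

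The Prdx1 match began 135 bases before the start and read GCTGAGTCA, the core on the opposite strand. The Txnrd1 match began 78 bases before the start, and the Nfe2l2 match lay 39 bases after it. The E-box letters CACGTG, a palindrome that does not overlap the other matches, stood in the windows of Mafg, Prdx4 and Gpx1, and in 2148 rat windows (6.42%). Among the 8 tested members with the antioxidant core the median log2 difference, fipronil minus control, was -0.29, with 6 below 0. Among the 22 tested members with a window and no core it was -0.12, with 15 below 0. No member of either set passed the test, and letters in a window show neither binding nor its absence.

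Values below are log2 signals relative to the 75th percentile of the array's non-control spots, so they compare arrays for 1 probe and not one probe with another. The arrays lay on 3 slides, each scanned apart: slide 1 held fipronil 7 and 8 with control 2 and 3, slide 3 held fipronil 1, 2, 3 and 4 alone, and slide 2 held control 5, 6, 7 and 8 alone. The 75th percentile of the scanner software's processed signal was 111 to 140 on slide 3. It was 245 to 279 on slide 1 and 379 to 472 on slide 2. The share of non-control spots well above background was 40.8% to 42.5% on slide 3. That share was 44.5% to 46.8% on slide 1 and 47.4% to 50.02% on slide 2. No spot was saturated. Slide and treatment therefore cannot be told apart on slides 2 and 3, and values within slide 1 are given beside the differences of single redox genes. Of 8 dopaminergic markers, Th (tyrosine hydroxylase) was well above background on 12 arrays and Aldh1a1 on 8, whereas Ddc, Slc6a3, Pitx3 and Foxa2 were above it on 0. Of 8 neuronal markers, 6 were above background on 0 arrays. Of 3 fibroblast and mesenchymal markers, all were tested and Col1a1 alone passed, with a log2 difference of 0.98 (limma, adjusted p = 0.0375). Vim differed by 0.10 and Pdgfrb by 0.12 (limma, adjusted p = 0.593 and 0.684). In the dopaminergic list 2 markers were tested, and in the neuronal, astrocyte, oligodendrocyte, microglia and leukocyte and endothelial lists 1 each. None of them passed. Th differed by -0.48 and Aldh1a1 by -0.84. In the other lists, in that order, Tubb3 differed by -0.355, Aldoc by -0.19, Mag by -0.69, Cx3cr1 by 0.27 and Vwf by -0.04. Their adjusted p-values ran from 0.0678 to 0.881 (limma). The part of marker differences in the results below was not tested.

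Of the 33 tested redox genes, 1 passed an adjusted p of 0.05 in limma's test over all genes: Txnip, which fell. Over all genes tested the call rate was 5.01% in either direction, 2.24% higher and 2.77% lower, against 3.03% of the redox genes. At an unadjusted p under 0.05 the numbers were 6 of 33 redox genes (18.2%), against 25% of all genes. The 6 were Txnip, Nfe2l2, Prdx1, Prdx3, Srxn1 and Txnrd1, so that in limma no gene of the glutathione, catalase and dismutase, NADPH or heme and quinone groups reached it. The median difference was -0.14 over the redox genes and -0.08 over all genes. Below 0 were 23 redox genes, with 10 above it, and of all genes 8088 were below 0 and 5454 above it. For 23 of 33 redox genes (69.7%) the difference was within 1.2-fold, as it was for 56.0% of all genes. The groups did not overlap for 3 redox genes, Txnip, Nfe2l2 and Prdx1, which is 9.09% of them, against 4.18% of all genes.

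**Figure D1:**
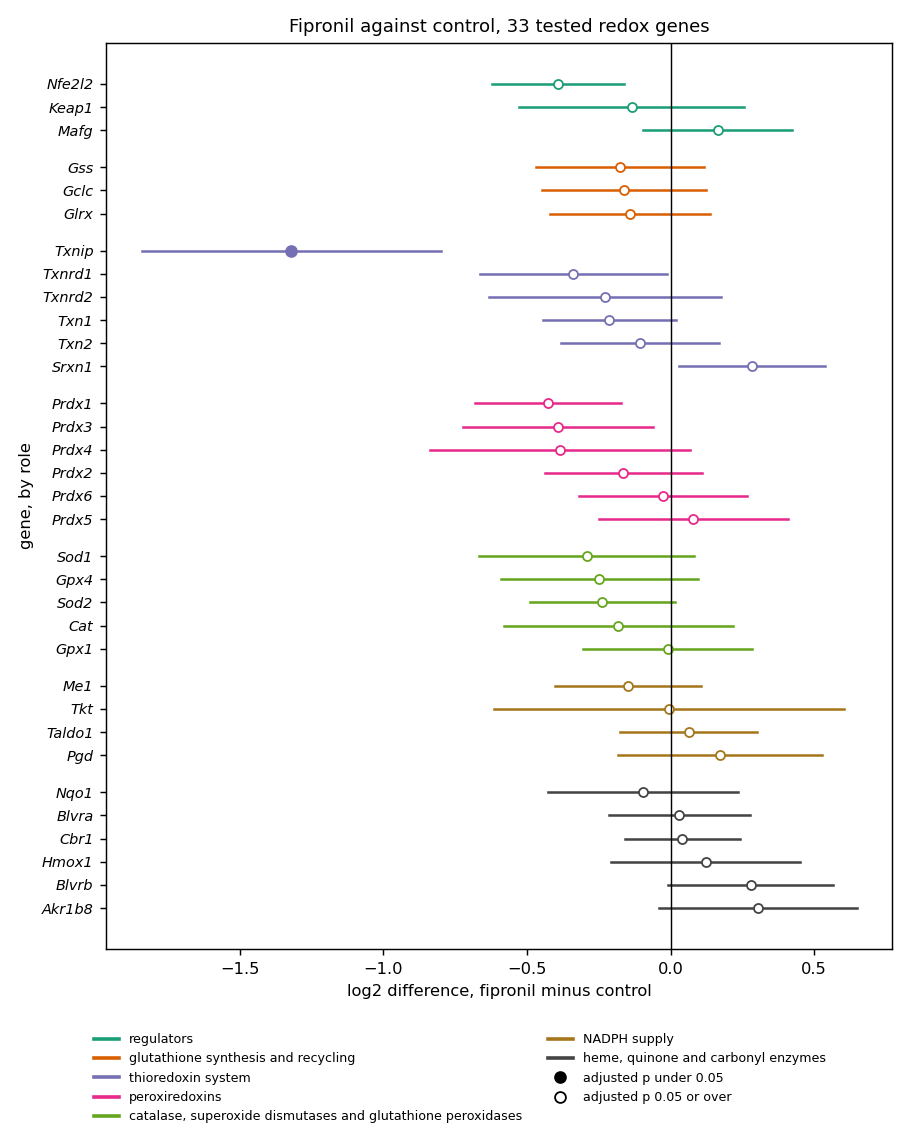
Log2 difference, fipronil minus control, of the 33 tested redox genes, grouped by role, with 95% confidence intervals from limma (n = 6 arrays a group); filled points have an adjusted p under 0.05. Txnip stands at -1.32 with an interval of -1.84 to -0.80, and the other 32 genes lie between -0.43 and 0.30.

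Txnip, the thioredoxin-interacting protein, had the lowest signals in fipronil-treated cells. The fipronil arrays 1, 2, 3, 4, 7 and 8 read -1.63, -1.60, -1.84, -1.44, -1.27 and -1.26, and the control arrays 2, 3, 5, 6, 7 and 8 read -0.75, -0.66, 0.66, 0.49, -0.42 and -0.43. Every fipronil array was below every control array, and the control arrays themselves were uneven, with 5 and 6 far above the other 4 although all of 5 to 8 shared a slide. The means were -1.51 ± 0.23 with fipronil and -0.19 ± 0.60 in controls (SD, n = 6 each). Txnip fell by 1.32 ± 0.24 (SE) on the log2 scale, a 2.50-fold lower signal (limma, adjusted p = 0.0154). In bulk RNA, fewer cells that express a gene and less of its RNA per cell cannot be told apart.

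The Txnip difference was -0.56 within slide 1, where the 2 fipronil arrays read -1.27 and -1.26 and the 2 control arrays -0.75 and -0.66. Across slides 2 and 3 it was -1.70. The contrast between these estimates had an adjusted p of 0.0926 in limma. A fit with slide as fixed block takes its difference from slide 1 alone, since slide 2 holds only control and slide 3 only fipronil arrays. It gave the same -0.56, with an SE of 0.34 (limma adjusted p = 0.384), and is no separate estimate. With slide as a random block the difference was -1.08 (limma adjusted p = 0.111). The call was lost in both fits. With normexp background and the 75th percentile it was -0.84 and passed (limma adjusted p = 0.00267), where the median of all genes was 0.17, against -0.08. With each array left out in turn the difference lay between -1.43 and -1.15 and passed the test each time. The difference was -1.15 without control 5 and -1.19 without control 6. No fit left out both and kept the other arrays, so their joint weight was not tested.

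**Figure D2:**
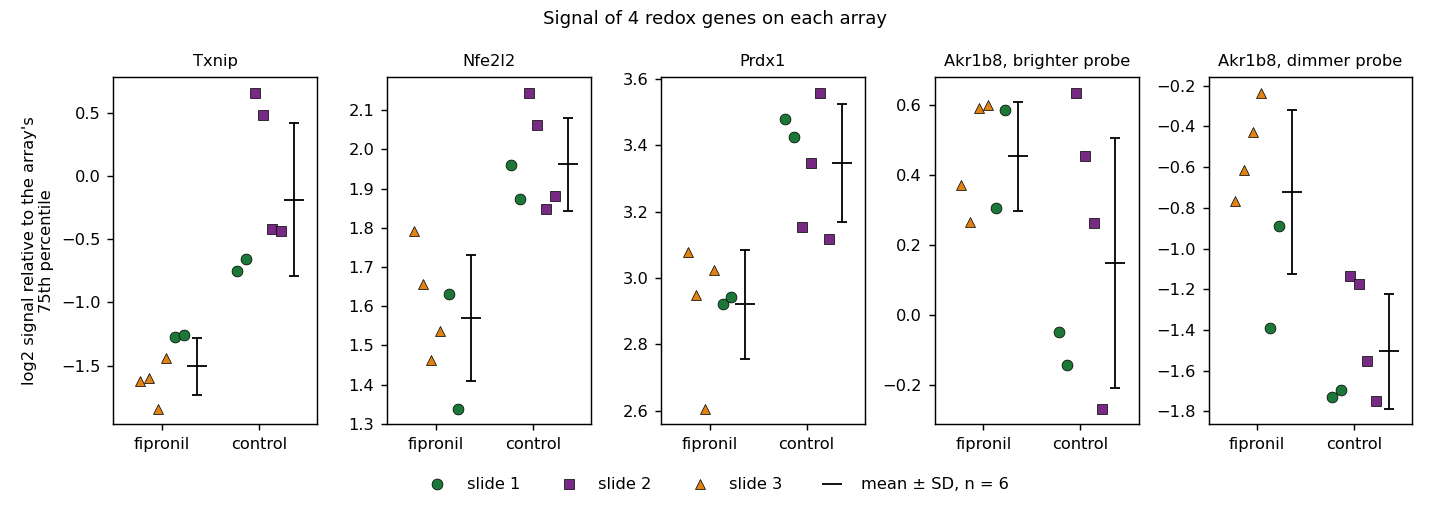
Log2 signal of Txnip, Nfe2l2, Prdx1 and both Akr1b8 probes on each array, relative to the array's 75th percentile, with fipronil left and control right; symbols mark the slide and bars the mean ± SD (n = 6). The groups do not overlap for Txnip, Nfe2l2 and Prdx1, and overlap for both Akr1b8 probes.

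Among the regulators, Nfe2l2 itself was lower on every fipronil array than on any control array, but did not pass the test. Its signals with fipronil were 1.79, 1.66, 1.46, 1.54, 1.63 and 1.34 on arrays 1, 2, 3, 4, 7 and 8, against 1.96, 1.87, 2.14, 2.06, 1.85 and 1.88 on control arrays 2, 3, 5, 6, 7 and 8. The highest fipronil array lay just under the lowest control array. The difference was -0.39 ± 0.11 (SE), a 1.31-fold lower signal with a 95% interval of -0.62 to -0.16 (limma, adjusted p = 0.0516). It was -0.43 within slide 1 and -0.37 across slides 2 and 3, so both estimates had a similar size. Their shared sign follows from groups that do not overlap. With each array left out in turn, 1 of 12 fits passed, that without fipronil 8, and adjusted p ran from 0.0457 to 0.111 (limma). The fit without fipronil 8 also called 2022 of all genes, against 678 with all arrays. The adjusted p of Nfe2l2 was 0.226 once slide entered the fit as a fixed block (limma).

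Keap1, the adaptor that targets NRF2 for degradation, had signals of -3.31, -3.37, -2.46, -2.27, -2.72 and -2.76 on fipronil arrays 1, 2, 3, 4, 7 and 8. The control arrays 2, 3, 5, 6, 7 and 8 gave -2.78, -2.57, -2.79, -2.80, -2.54 and -2.60. The fipronil arrays spread on both sides of the control arrays, and 5 of 6 of them were well above background. The difference was -0.14, with an interval of -0.53 to 0.26 (limma, adjusted p = 0.676), and it was -0.06 within slide 1 and -0.17 across slides 2 and 3. Mafg, a small MAF partner of NRF2, differed by 0.16 (limma, adjusted p = 0.411), with 0.28 within slide 1 and 0.11 across slides 2 and 3. Its other probe differed by -0.07, with 0.29 within slide 1 and -0.25 across slides 2 and 3. The repressor Bach1 was well above background on 0 of 12 arrays with either of its probes and was not tested.

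In glutathione synthesis and recycling, 3 of 5 genes were tested and none passed; their differences lay between -0.18 and -0.14. Gclc, the catalytic subunit of the rate-limiting ligase, read -0.09, 0.04, -0.47, -0.05, -0.27 and -0.65 on fipronil arrays 1, 2, 3, 4, 7 and 8. On control arrays 2, 3, 5, 6, 7 and 8 it read 0.10, -0.00053, -0.23, -0.21, -0.02 and -0.16. The groups overlapped, and fipronil 8 and 3 were the lowest arrays. The difference was -0.16 overall (limma, adjusted p = 0.468), -0.51 within slide 1 and 0.01 across slides 2 and 3. Gclm, the modifier subunit, was well above background on 0 of 12 arrays. Its probe holds 9 G or C bases among 60, and its signals were between -6.27 and -4.76 with fipronil and between -6.70 and -4.70 in controls. Gss, glutathione synthetase, differed by -0.18 and Glrx, a glutaredoxin, by -0.14, with adjusted p-values of 0.440 and 0.523 (limma). Within slide 1 both were above 0, Gss at 0.06 and Glrx at 0.08, and across slides 2 and 3 they were -0.29 and -0.25. Gsr, glutathione reductase, was above background on 0 arrays.

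In the thioredoxin system, 6 of 7 genes were tested, and Txnip alone passed. Txn1, cytosolic thioredoxin, was measured by 10 spots an array and read 5.26, 5.32, 5.33, 5.54, 5.31 and 5.59 on fipronil arrays 1, 2, 3, 4, 7 and 8, against 5.54, 5.40, 5.72, 5.74, 5.72 and 5.50 on control arrays 2, 3, 5, 6, 7 and 8. Fipronil 4 and 8 lay inside the control range and the other 4 fipronil arrays below it. The difference was -0.21 (limma, adjusted p = 0.234), and it was -0.01 within slide 1 against -0.31 across slides 2 and 3. Thioredoxin's partner in mitochondria, Txn2, differed by -0.11, with 0.02 within slide 1 and -0.17 across slides 2 and 3, and the mitochondrial reductase Txnrd2 by -0.23, with 0.33 within slide 1 and -0.51 across slides 2 and 3. Neither passed, with adjusted p-values of 0.633 and 0.467 (limma).

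Txnrd1, the cytosolic thioredoxin reductase, read -0.89, -0.64, -1.44, -0.41, -0.96 and -0.92 on fipronil arrays 1, 2, 3, 4, 7 and 8, and -0.48, -0.60, -0.59, -0.41, -0.45 and -0.69 on control arrays 2, 3, 5, 6, 7 and 8. Its difference was -0.34 (limma, adjusted p = 0.184), with -0.40 within slide 1 and -0.31 across slides 2 and 3. These values come from the brighter of its 2 probes. With the mean of both probes in its place the difference was 0.0032 (limma, adjusted p = 0.989), so the Txnrd1 values depend on the probe. Fipronil 4 lay at the top of the control range, fipronil 2 inside it, and the other 4 fipronil arrays below it.

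Srxn1, the sulfiredoxin that repairs overoxidised peroxiredoxins, read 1.17, 1.2, 1.06, 1.0, 0.76 and 1.01 on fipronil arrays 1, 2, 3, 4, 7 and 8. The control arrays 2, 3, 5, 6, 7 and 8 read 0.95, 0.70, 0.76, 0.83, 0.85 and 0.42. Every fipronil array but 7 was above all the control arrays. The difference was 0.28, with an interval of 0.03 to 0.54 (limma, adjusted p = 0.158), and it was 0.06 within slide 1 against 0.39 across slides 2 and 3. Msra, which repairs oxidised methionine, was above background on 0 of 6 fipronil and 3 of 6 control arrays and was not tested.

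All 6 peroxiredoxins, a family of thiol peroxidases, were tested and none passed. Of their differences 5 were below 0, and the median of the 6 was -0.27. Prdx1, a cytosolic form, was measured by 10 spots an array and did not overlap between groups. Its signals were 3.08, 2.95, 2.61, 3.02, 2.92 and 2.94 on fipronil arrays 1, 2, 3, 4, 7 and 8, against 3.48, 3.43, 3.16, 3.35, 3.56 and 3.12 on control arrays 2, 3, 5, 6, 7 and 8. The difference was -0.43 ± 0.12 (SE), a 1.34-fold lower signal with an interval of -0.68 to -0.17 (limma, adjusted p = 0.0527). It was -0.52 within slide 1 and -0.38 across slides 2 and 3. Txnip, Nfe2l2 and Prdx1 were each lower with fipronil in both estimates, which follows from groups that do not overlap. Keap1, Txn1, Txnrd1, Prdx3, Cat, Sod2 and Me1 were also below 0 in both.

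Among the other peroxiredoxins, the contrast between the estimates had adjusted p-values of 0.0521 for Prdx4, 0.0906 for Prdx5, 0.137 for Prdx2, 0.318 for Prdx3 and 0.510 for Prdx6 (limma), so none passed. Prdx3, the mitochondrial form, averaged 1.70 ± 0.27 with fipronil and 2.09 ± 0.25 in controls (SD, n = 6 each), with -0.09 within slide 1 and -0.54 across slides 2 and 3. Prdx4, the form of the endoplasmic reticulum, averaged 1.29 ± 0.41 with fipronil and 1.67 ± 0.37 in controls, and was 0.38 higher with fipronil within slide 1 but -0.77 across slides 2 and 3. Prdx2 differed by -0.16, with 0.19 within slide 1 and -0.34 across slides 2 and 3. Prdx5 differed by 0.08, with 0.56 within slide 1 and -0.16 across slides 2 and 3, and Prdx6 by -0.03, with -0.21 within slide 1 and 0.06 across slides 2 and 3. For fipronil against control, their adjusted p-values in limma were between 0.136 and 0.923.

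Of catalase, the superoxide dismutases and the glutathione peroxidases, 5 of 6 genes were tested, all 5 differences were below 0, with a median of -0.24, and none passed. Sod1, the cytosolic copper and zinc dismutase, averaged 5.17 ± 0.40 with fipronil and 5.46 ± 0.17 in controls (SD, n = 6 each), with 0.30 within slide 1 and -0.59 across slides 2 and 3. Sod2, the mitochondrial manganese dismutase, averaged 2.33 ± 0.06 with fipronil and 2.57 ± 0.23 in controls. Its difference was -0.24 (limma, adjusted p = 0.226), -0.16 within slide 1 and -0.28 across slides 2 and 3. Gpx4, which reduces lipid peroxides in membranes, differed by -0.25, with 0.30 within slide 1 and -0.53 across slides 2 and 3. Its other probe differed by -0.14, with 0.39 within slide 1 and -0.41 across slides 2 and 3. Gpx1 differed by -0.0092, with 0.26 within slide 1 and -0.14 across slides 2 and 3. The catalase gene Cat was well above background on 2 of 6 fipronil arrays and on 6 of 6 control arrays, and its difference was -0.18 (limma, adjusted p = 0.570), with -0.07 within slide 1 and -0.24 across slides 2 and 3. Gpx3, a secreted peroxidase, was above background on 0 arrays.

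The genes that supply NADPH were all tested and none passed. Me1, malic enzyme, differed by -0.15, with -0.21 within slide 1 and -0.12 across slides 2 and 3. Taldo1, transaldolase, differed by 0.06, with 0.06 and 0.07 in the same estimates, and Pgd, phosphogluconate dehydrogenase, by 0.17, with 0.16 and 0.18. Tkt, transketolase, had the largest SD of the 33 tested redox genes among fipronil arrays, 0.65, beside 0.41 among control arrays. Its signals ran from 4.62 to 6.22 with fipronil and from 4.71 to 5.84 in controls, and its difference was -0.0039, with 0.62 within slide 1 and -0.31 across slides 2 and 3.

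Among the heme, quinone and carbonyl enzymes, 6 of 7 genes were tested, 5 differences were above 0, and none passed. Hmox1, heme oxygenase, a classic gene of oxidant and heme exposure, read -0.64, -0.52, -0.69, -0.16, -0.17 and -0.02 on fipronil arrays 1, 2, 3, 4, 7 and 8. The control arrays 2, 3, 5, 6, 7 and 8 read -0.39, -0.57, -0.56, -0.86, -0.20 and -0.34. The groups overlapped widely, and the difference was 0.12 with an interval of -0.21 to 0.45 (limma, adjusted p = 0.651). It was 0.39 within slide 1 and -0.01 across slides 2 and 3.

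Nqo1, the quinone reductase often used as a readout of NRF2, read -3.42, -3.06, -2.68, -2.50, -2.80 and -2.54 on fipronil arrays 1, 2, 3, 4, 7 and 8. The control arrays 2, 3, 5, 6, 7 and 8 read -2.86, -2.77, -2.59, -2.58, -2.79 and -2.85. Fipronil 1 and 2 were the lowest of all 12 arrays and fipronil 4 and 8 the highest. The difference was -0.10, with an interval of -0.43 to 0.24 (limma, adjusted p = 0.735), and it was 0.14 within slide 1 and -0.21 across slides 2 and 3. The biliverdin reductases Blvra and Blvrb differed by 0.03 and 0.28, and Cbr1, a carbonyl reductase, by 0.04. Within slide 1 Blvra was at 0.09 and Cbr1 at 0.07, and across slides 2 and 3 at -0.00066 and 0.03. Blvrb was 0.61 higher with fipronil within slide 1 and 0.12 higher across slides 2 and 3, with an adjusted p of 0.210 (limma). Osgin1, an oxidative stress growth inhibitor, was above background on 2 of 12 arrays and was not tested.

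Akr1b8, an aldo-keto reductase, was measured by 2 probes of 10 spots each. The brighter probe, used in the test, read 0.37, 0.27, 0.59, 0.60, 0.31 and 0.59 with fipronil, against -0.05, -0.14, 0.63, 0.45, 0.26 and -0.27 in controls, in the array order given above. The difference was 0.30 (limma, adjusted p = 0.252), with 0.54 within slide 1 and 0.19 across slides 2 and 3. The dimmer probe, described because its values stood out, read -0.77, -0.62, -0.43, -0.23, -1.39 and -0.89 with fipronil, against -1.73, -1.70, -1.14, -1.17, -1.55 and -1.75 in controls. Fipronil 7 lay below control 5 and 6, so the groups overlapped. Its difference was 0.79 ± 0.19 (SE, 1.72-fold higher), with an adjusted p of 0.0345 when all 16291 probes were tested in limma, where 5.3% of probes passed. It was 0.57 within slide 1 and 0.89 across slides 2 and 3. Fitted with slide as a fixed block the probe had an adjusted p of 0.262, as a random block 0.140, and 3 of 12 fits that left out an array kept the call (adjusted p 0.0142 to 0.0848, limma). Close relatives of Akr1b8 in the same gene family could share signal with either probe, so its values are uncertain.

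For 8 redox genes 2 probes passed the filter. Over all 12 arrays the probes had the same sign for Gpx1, Gpx4 and Akr1b8 and opposite signs for 5 genes, Blvra, Cbr1, Mafg, Txn1 and Txnrd1. Within slide 1, however, the brighter and dimmer probes were both above 0 for Blvra (0.09 and 0.04), Cbr1 (0.07 and 0.08) and Mafg (0.28 and 0.29). For Txn1 they kept opposite signs there (-0.01 and 0.48). The dimmer Cbr1 probe differed by -0.44 (limma over all probes, adjusted p = 0.120), against 0.04 for the brighter one. That -0.44 was 0.08 within slide 1 and -0.71 across slides 2 and 3. Where a probe was printed 10 times on the array, its spots had a median SD within an array of 0.0631 to 0.120, for 7 tested redox genes. Of the other tested redox genes, 3 rested on 2 spots an array and 23, Txnip included, on 1.

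**Figure D3:**
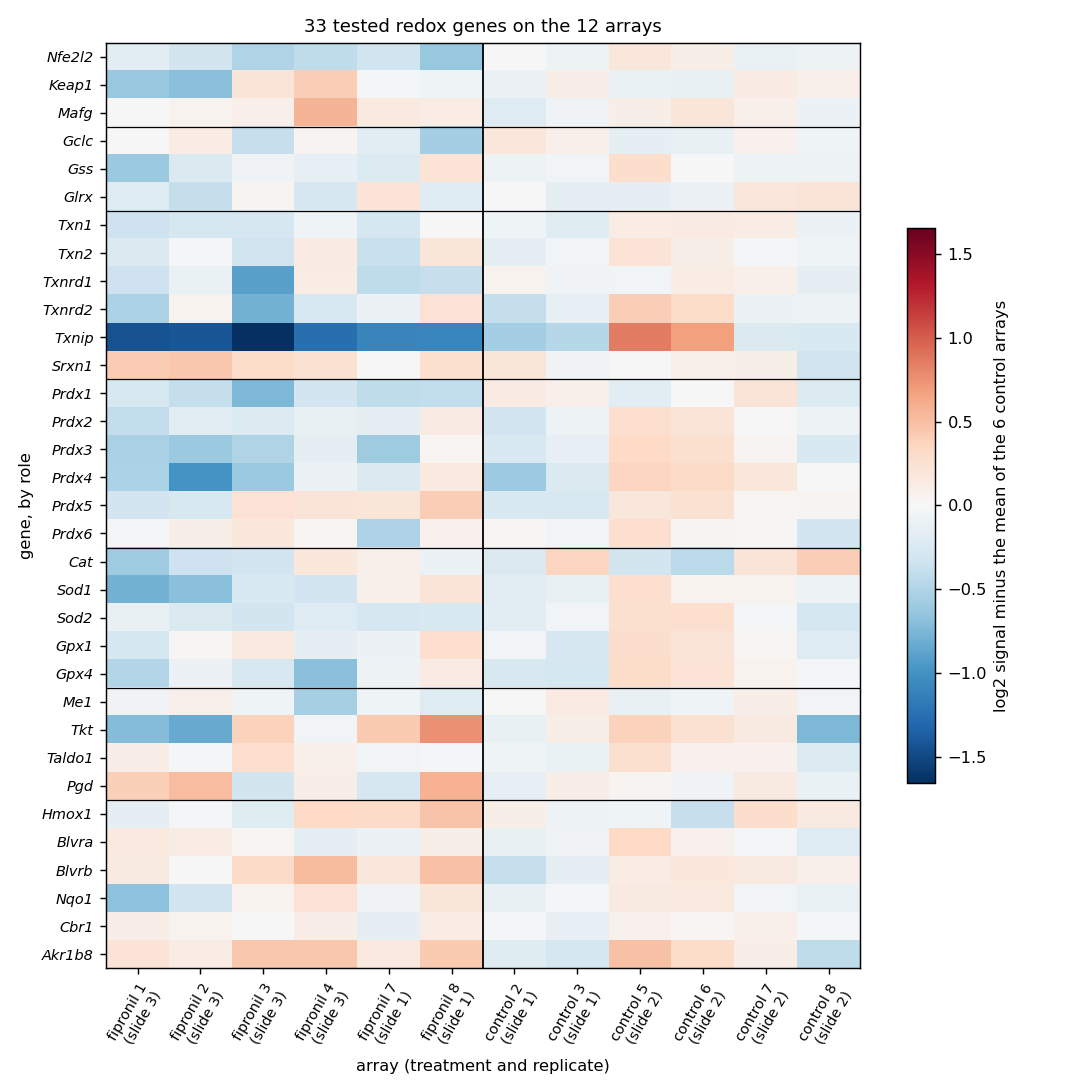
Log2 signal of the 33 tested redox genes on the 12 arrays, each as its difference from the mean of the 6 control arrays, with fipronil left and control right and genes grouped by role. Txnip is dark blue (lower) on all 6 fipronil arrays, and controls 5 and 6 are high for many genes.

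The arrays of each group were uneven over the redox genes. Among the fipronil arrays, array 8 was the highest for 16 of 33 redox genes (48.5%), as it was for 30.1% of all genes. Among the control arrays, array 5 was the highest for 16 of 33 (48.5%), against 26.8% of all genes. Control 5 or 6 was the highest for 23 of 33 redox genes (69.7%), against 41.7% of all genes. Control 2 was the lowest for 11 of 33 (33.3%), against 25.3%. These shares describe the 12 arrays, and their cause was not tested.

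Within slide 1 the median difference of the redox genes was 0.07, with 21 above 0 and 12 below 0, and that of all genes was -0.016, with 6555 above 0 and 6987 below 0. Across slides 2 and 3 the redox median was -0.21, with 9 above 0 and 24 below 0, and the median of all genes was -0.10, with 5618 above 0 and 7924 below 0. The medians of both sets were thus lower across slides 2 and 3 than within slide 1. The sign was the same in both for 17 of 33 redox genes (51.5%), against 43.8% of all genes. The contrast between the estimates passed an adjusted p of 0.05 for 0 redox genes, the lowest being 0.0506 for Sod1, and for 1238 of all 13542 genes (limma). At an unadjusted p under 0.05 it held 7 redox genes, Gpx4, Prdx2, Prdx4, Prdx5, Sod1, Txnip and Txnrd2, and 32.6% of all genes. With slide as a fixed block, where the difference rests on slide 1 alone, 0 redox genes passed, beside 0.0886% of all genes. The lowest adjusted p of a redox gene was 0.146 (limma). There 5 redox genes, Nfe2l2, Prdx1, Gclc, Prdx5 and Blvrb, and 19% of all genes had an unadjusted p under 0.05. When slide 1 was fitted alone, 0 redox genes and 0 of all genes passed. An unadjusted p under 0.05 then held for 6 redox genes, Akr1b8, Blvrb, Prdx1, Prdx5, Tkt and Txnip, and 15.8% of all genes (limma). With slide as a random block 0 passed, the lowest being 0.111, beside 0.155% of all genes. There 4 redox genes, Txnip, Nfe2l2, Prdx1 and Blvrb, and 14.7% of all genes had an unadjusted p under 0.05 (limma).

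**Figure D4:**
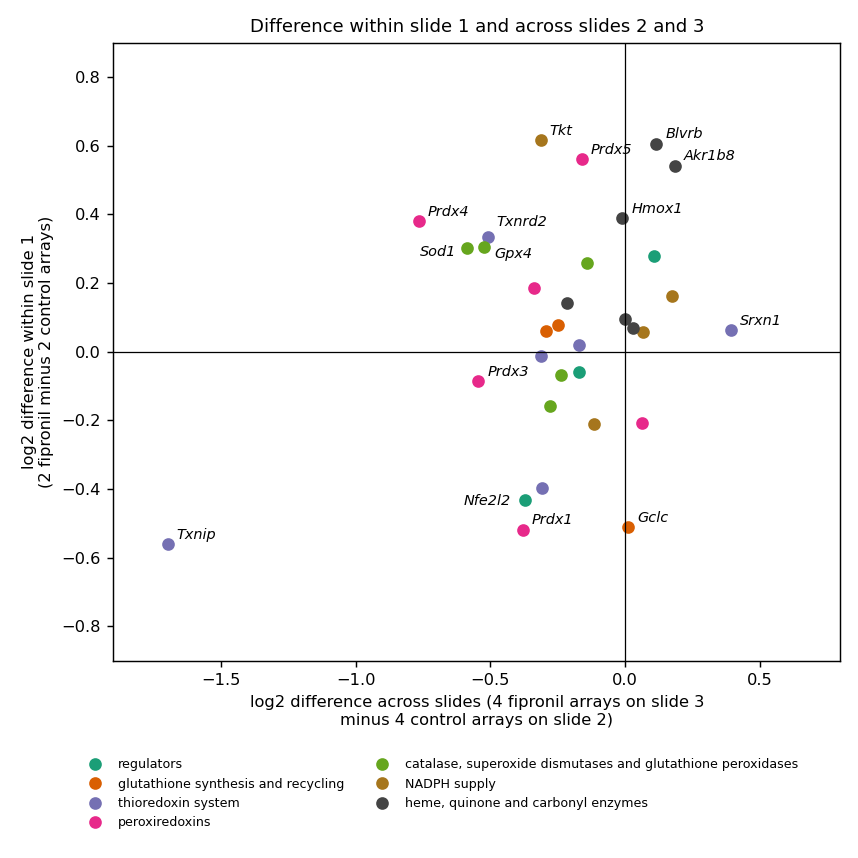
Each tested redox gene's log2 difference within slide 1 (2 fipronil minus 2 control arrays) against that across slides (4 fipronil arrays of slide 3 minus 4 control arrays of slide 2), coloured by role. Txnip, Nfe2l2 and Prdx1 lie below 0 on both axes, as genes whose groups do not overlap must. Prdx4, Sod1 and Gpx4 are above 0 within slide 1 and below 0 across slides.

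Around these members, 90 other genes of glutathione, thioredoxin, selenoprotein, NRF2 and conjugation pathways were listed by role. Of the 67 tested, 3 rose and 1 fell (5.97%, against 5.01% of all genes), with a median difference of -0.13. Gstt2, a glutathione transferase, rose by 0.82 ± 0.21 (SE, limma adjusted p = 0.0390), with 0.95 within slide 1 and 0.76 across slides 2 and 3. Abcc1, which exports glutathione conjugates, rose by 0.81 ± 0.20 (limma adjusted p = 0.0358), with 0.13 within slide 1 and 1.15 across slides 2 and 3. Ugt1a6, a glucuronosyltransferase, rose by 0.40 ± 0.09 (limma adjusted p = 0.0306), with 0.38 within slide 1 and 0.41 across slides 2 and 3. Ugt1a6 shares exons with the other genes of its locus, so its probe may read those too. Glrx5, a mitochondrial glutaredoxin of iron-sulfur cluster assembly, fell by 0.60 ± 0.13 (limma adjusted p = 0.0269), with -0.23 within slide 1 and -0.78 across slides 2 and 3. None of the 4 passed with slide as a block, where the adjusted p-values were 0.197 to 0.816 as a fixed block and 0.133 to 0.241 as a random block (limma).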

How the data were processed

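Gene expression was measured on 12 Agilent 1-colour arrays, 6 of fipronil-treated and 6 of untreated N27 cells. Per the submitters' processing notes, images were read with Agilent Feature Extraction 10.7, and per the file headers the processed signal used here is an intensity after the scanner software's own background step. The flags for well above background, saturation and outlier spots are other columns of the same deposited files. The deposited table of all samples holds log2 values, which the labels call quantile-normalized, and served as an alternative. Its column medians were 2.63 and its minimum 1.5, and the centring behind these values is not given in the sources used here.

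From the intensities, log2 signal minus the array's 75th percentile over 58717 non-control spots was computed, outlier spots included. Between 323 and 711 spots an array were flagged as outliers. Spots of a probe were then averaged without the flagged ones. Where every spot of a probe was flagged, as for a flagged probe printed once, all its spots were kept. Probes well above background on at least 6 of 12 arrays were kept (16291), and the brightest stood for its gene (13542). Gene names came from RefSeq (GRCr8), matched through the accession for 21109 of 45598 probes, the symbol for 6684 and an older symbol for 424, and the remaining 17381 kept the name in the files. Groups were compared with limma 3.58.1 in R 4.3.3 (lmFit, eBayes, two-sided), with Benjamini-Hochberg adjustment over all genes and a threshold of 0.05. The fit was tested on simulated data. The precision is limited by 6 arrays a group.

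The 39 members, their roles and the lists of other redox genes and markers were chosen with earlier results of these data known. Array values are given for Txnip, Nfe2l2, Keap1, Hmox1, Nqo1, Gclm, Gclc, Txn1, Txnrd1 and Srxn1 by rule (for Gclm as a range, being below background). Prdx1 and Akr1b8, and the dimmer probes, were added after their values were seen. From the other redox genes, those past the threshold are named. The separate values of the dimmer Txnrd1 probe are not reported here.
Alternatives were quantile and median scaling, normexp background, the deposited log2 table, other filters, slide as a block, slides apart, replicate number as a block, each array left out, and the mean of a gene's probes. Removal of the trend with probe GC content was added after seeing the data.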

Additional observations from a re-analysis of the deposited data

Results flagged for a closer look

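In 66 groups of 6 arrays (33 tested redox genes in each treatment), 4 held an array whose gap to its nearest neighbour, as a share of the group's range, was above Dixon's critical value, and chance gives about 1 such group in 20. The values are log2 signals relative to the array's 75th percentile. Mafg read 1.32 on fipronil 4, against 0.77 to 0.93 on the other fipronil arrays. Prdx1 read 2.61 on fipronil 3, against 2.92 to 3.08 on the others. Prdx6 read 0.79 on fipronil 7, against 1.29 to 1.47 on the others. Gss read 0.37 on control 5, against -0.01 to 0.08 on the other control arrays.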

How the results depend on the processing

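Over all genes the count of calls was 678, of which 44.7% were higher with fipronil. It was 6776 with normexp background and the 75th percentile (75.5% higher, where the median of all genes was 0.17, against -0.08), 16313 with no filter on dim probes (92.5% higher), 3044 on slides 2 and 3 alone, 12 with slide as a fixed block, 21 with slide as a random block and 0 on slide 1 alone (limma, 2140 at an unadjusted p under 0.05). The share called higher was 51.0% with quantile normalization, 53.1% with median scaling, 50.6% in the deposited log2 table and 62.2% with the GC trend removed. With each array left out it ran from 228 to 2022, and every array but fipronil 7 moved it by over 1.5 times: 2022 without fipronil 8, and 228 (without fipronil 3) to 395 (without fipronil 2) for the others.

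Redox genes called numbered 1. The count was 14 of 33 with normexp and the 75th percentile (4 higher: Keap1, Txnrd2, Cat and Nqo1), beside 6776 of all 13542 genes. It was 3 of 33 with normexp and quantile normalization, beside 1012 of 13542. With the filter on all 12 arrays it was 3 of 31, beside 965 of 10608. With no filter it was 4 of 39, beside 16313 of 36181. On slides 2 and 3 alone it was 5 of 33 (Txnip, Prdx3, Prdx4, Sod1 and Gpx4), beside 3044 of 13542. It was 0 with slide as a fixed block, as a random block or on slide 1 alone, beside 12, 21 and 0 of all genes. With each array left out it was 1 to 4, with 4 without fipronil 8 (Nfe2l2, Txnip, Prdx1 and Prdx3), beside 2022 of all genes. Nfe2l2 and Prdx1 also passed in the normexp, all-array and no-filter fits. Txnip passed in 22 of 26 alternatives. Its difference was -0.56 with slide as a fixed block and on slide 1 alone, which are the same estimate (limma adjusted p = 0.384 and 0.278). With slide as a random block it was -1.08. It was -0.84 with normexp and the 75th percentile and -0.97 with normexp and quantile normalization, both still past the threshold. Of 33 redox genes, 12 kept their sign in every alternative that gave a value and 21 did not; Txnip, Nfe2l2 and Prdx1 kept it. The causes were not tested.

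The replicate numbers shared by both groups gave correlations of deviations from 0.43 down to -0.31. Each shared number lay on different slides in fipronil and control, so these correlations cannot show whether the numbers pair samples. The labels do not say. With the replicate block, where only numbers 2, 3, 7 and 8 lie in both groups, 0 genes passed in limma, 0 redox genes among them (2164 and 5 at an unadjusted p under 0.05), and Txnip was -0.93 (limma adjusted p = 0.169). Depth is limited by signal over background: Gclm, Gsr, Bach1 and Gpx3 were below it on all arrays.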
